A study of Mus musculus with 79 samples.

Results

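The comparison described here is that of the dark phase with the light phase in the kidneys of mice that breathed 6% oxygen. It rests on 8 of the 79 RNA sequencing libraries of the study, chosen by the labels for tissue, time and oxygen level. The dark-phase group is 4 kidneys of wild-type C57BL/6 mice that breathed 6% oxygen from zeitgeber time (ZT, hours after lights on) 16 to 20, and the light-phase group is 4 kidneys of wild-type C57BL/6 mice that breathed it from ZT4 to ZT8. The same 2 times in mice that breathed 21% oxygen (synthetic air) in the same kind of cage, again 4 kidneys each, served to ask which time-of-day differences persisted, shrank or appeared at low oxygen. All 16 mice were 3 months old, had been kept on a 12 h light, 12 h dark cycle, sat in a flushed cage for 4 h and were killed directly afterwards. Per the series design text, replicates are separate mice. Sex is not given in the sources used here, and only these 2 times were sampled, so a gene with equal levels at both times may still cycle.

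Total counts ran from 2.15 to 3.91 M over the 16 kidney libraries. They spanned 2.71 to 3.24 M in dark-phase and 2.15 to 3.08 M in light-phase kidneys at 6% oxygen, and no difference was detected (exact two-sided permutation p = 0.257, adjusted p = 0.514 over 2 comparisons; 0.0286 is the smallest p that 4 against 4 allows). All 10 proximal tubule markers, all 5 markers of the loop of Henle and all 8 collecting duct markers were listed, with summed levels of 15309 to 17447 CPM (counts normalised to the TMM-scaled library size) for the proximal tubule in dark-phase and 15221 to 17130 CPM in light-phase 6% kidneys. In a principal component analysis of the 16 libraries, replicate A of the dark-phase 6% group stood apart from its 3 group members on the second component (6.18 against -17.2, -17.8 and -18.1), and replicate B of the light-phase 6% group, the shallowest library, did so on the second (26.3) and on the next (-28.3). Among the air controls at ZT4-8, replicates B and D lay at -23.0 and -25.9 on the second component and replicate C at 31.2. The 54 genes called at 6% oxygen (an adjusted p under 0.05) became 28 without dark-phase 6% replicate A, 28 without light-phase 6% replicate B, and 57, 94 and 62 without the air replicates B, C and D.

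The circadian clock of mammalian cells is a loop of transcription factors. BMAL1 (gene Arntl), paired with CLOCK or NPAS2, binds E-box sequences and drives the genes of its own repressors, the PER and CRY proteins, together with Nr1d1, Nr1d2, Ciart, Dbp and Tef. The REV-ERB receptors (Nr1d1, Nr1d2) then repress, and the ROR receptors activate, genes with ROR response elements such as Arntl and Nfil3, and DBP, TEF and HLF compete with NFIL3 for D-box sequences in output genes. In the kidney this clock is known for daily changes in the handling of sodium, water and other solutes.

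Promoter windows of 4 clock genes are shown in pairs that hold the same one of these sequences. At 6% oxygen Cry1 kept and Ciart lost a called difference, with log2 fold changes of dark over light phase of 3.09 and -0.80. Nfil3 kept and Arntl lost one, but their fold changes of 0.96 ± 0.16 and 0.64 ± 0.34 (SE) had the same sign. The genes of a pair were not compared by a test. Each window runs from 250 bases before to 50 after the annotated start (RefSeq, GRCm38.p6), reads 5′ to 3′ on the gene's strand, and has the motif named beside it in capitals. Of 4 motifs searched on both strands, the E-box CACGTG (its own reverse complement) was in 7.15% of 32851 such windows and the ROR element TAGGTCA in 2.61%. The E′-box CACGTT was in 4.68% and the D-box TTATGTAA in 0.938%. A gene can have several windows: of 8331 tested genes with any, 12.2% held the E-box, 2.40% the ROR element, 6.25% the E′-box and 0.672% the D-box in at least 1. Of 21 tested clock genes, 17 had a window, and 5 of these held the E-box, 2 the ROR element, 3 the E′-box and 1 the D-box.
Cry1 (chr10:85185005-85185304, minus strand), E-box: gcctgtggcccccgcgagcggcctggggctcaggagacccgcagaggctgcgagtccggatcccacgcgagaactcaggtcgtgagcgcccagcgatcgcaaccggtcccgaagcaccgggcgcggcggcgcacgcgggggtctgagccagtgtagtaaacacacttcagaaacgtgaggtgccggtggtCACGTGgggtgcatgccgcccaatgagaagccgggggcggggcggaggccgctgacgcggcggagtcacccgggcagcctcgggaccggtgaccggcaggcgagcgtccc
Ciart (chr3:95882179-95882478, minus strand), E-box: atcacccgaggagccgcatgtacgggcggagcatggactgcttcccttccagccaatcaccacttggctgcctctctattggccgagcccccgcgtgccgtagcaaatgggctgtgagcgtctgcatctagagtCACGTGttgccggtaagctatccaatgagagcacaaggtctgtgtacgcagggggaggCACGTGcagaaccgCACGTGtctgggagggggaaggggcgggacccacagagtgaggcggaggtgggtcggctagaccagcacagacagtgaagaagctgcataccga
Nfil3 (chr13:52980990-52981289, minus strand), ROR element: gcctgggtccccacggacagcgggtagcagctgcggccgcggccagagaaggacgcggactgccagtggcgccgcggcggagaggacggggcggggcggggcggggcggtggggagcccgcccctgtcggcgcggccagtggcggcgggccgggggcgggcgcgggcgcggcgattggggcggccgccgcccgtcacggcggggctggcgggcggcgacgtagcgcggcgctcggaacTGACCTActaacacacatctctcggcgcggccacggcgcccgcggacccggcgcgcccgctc
Arntl (chr7:113207261-113207560, plus strand), ROR element: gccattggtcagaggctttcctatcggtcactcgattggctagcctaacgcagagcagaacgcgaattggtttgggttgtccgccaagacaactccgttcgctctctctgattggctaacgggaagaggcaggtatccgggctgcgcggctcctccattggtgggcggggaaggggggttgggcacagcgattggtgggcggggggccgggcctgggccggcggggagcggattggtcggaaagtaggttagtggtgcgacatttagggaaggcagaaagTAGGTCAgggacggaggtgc
The Ciart window holds 3 E-boxes and the others 1 match each to the motif in capitals. That of Cry1 also holds the E′-box, left in lower case, which does not overlap its E-box, and the ROR element of Nfil3 is shown as its reverse complement. The match in Arntl lies after the annotated start and those in the other windows before it. A match describes the letters only.

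Of 10878 genes tested at 6% oxygen, 54 (0.496%) were called, that is, differed between the phases at an adjusted p under 0.05 (edgeR's quasi-likelihood test with Benjamini-Hochberg adjustment over all genes). In dark-phase kidneys 25 (0.23%) were higher and 29 (0.267%) lower than in light-phase kidneys. The groups did not overlap in 53 of the 54, against 7.43% of all genes tested. The calls were made on these same values, which favours groups that stand apart, so this is no separate support. In air 119 genes (1.09%) were called, 58 (0.533%) higher and 61 (0.561%) lower in the dark phase. The median standard error was 0.21 on the log2 scale at 6% oxygen and 0.20 in air. Both come from a fit that shares the estimate of the spread over all 16 libraries, so their likeness follows from the fit. Fits of each oxygen level alone made 75 calls at 6% oxygen and 50 in air, the opposite order, so the counts do not rank the oxygen levels. In the shared fit, 11 genes were called at both oxygen levels, which is 20.4% of the 54 and 9.24% of the 119. A test of the difference between the time effects (the log2 fold change of dark over light phase at 6% oxygen minus that in air) called 40 genes (0.368%), 25 (0.23%) with a positive and 15 (0.138%) with a negative difference. Leaving out 1 library at a time lowered the 54 calls to between 21 and 34 for each library at 6% oxygen except the light-phase replicate C (47), and 15 of the 54 were called in all 16 such fits.

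The called genes fell into classes by these 3 tests. Persisting differences, called at both oxygen levels with the same sign, numbered 10, and 2 of these were also smaller at 6% oxygen by the test of the difference. Smaller differences numbered 24. They were called in air and for the difference between the levels, and the fold change was smaller in size at 6% oxygen. In 17 of the 24 the fold change at 6% oxygen had the opposite sign, so the test of the difference does not by itself show a smaller size there. Npas2 alone was called at both with opposite signs. Larger or new differences numbered 8. They were called at 6% oxygen and for the difference between the levels, and the fold change was larger in size at 6% oxygen. In all 8 the fold change in air had the opposite sign, and sizes without their sign were not compared by a test. For most genes called at only 1 oxygen level the difference between the levels was not itself called: this held for 35 of 43 genes called at 6% oxygen and not in air, and for 87 of 108 called in air and not at 6% oxygen, so neither set is shown to be specific to an oxygen level. Among the 119 genes called in air the median size was 0.89 on the log2 scale in air and their median at 6% oxygen, signed by the direction in air, was 0.20. Among the 54 genes called at 6% oxygen the corresponding medians were 0.94 at 6% oxygen and 0.18 in air. Selection on a called value raises the first median of each pair.

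**Figure D1:**
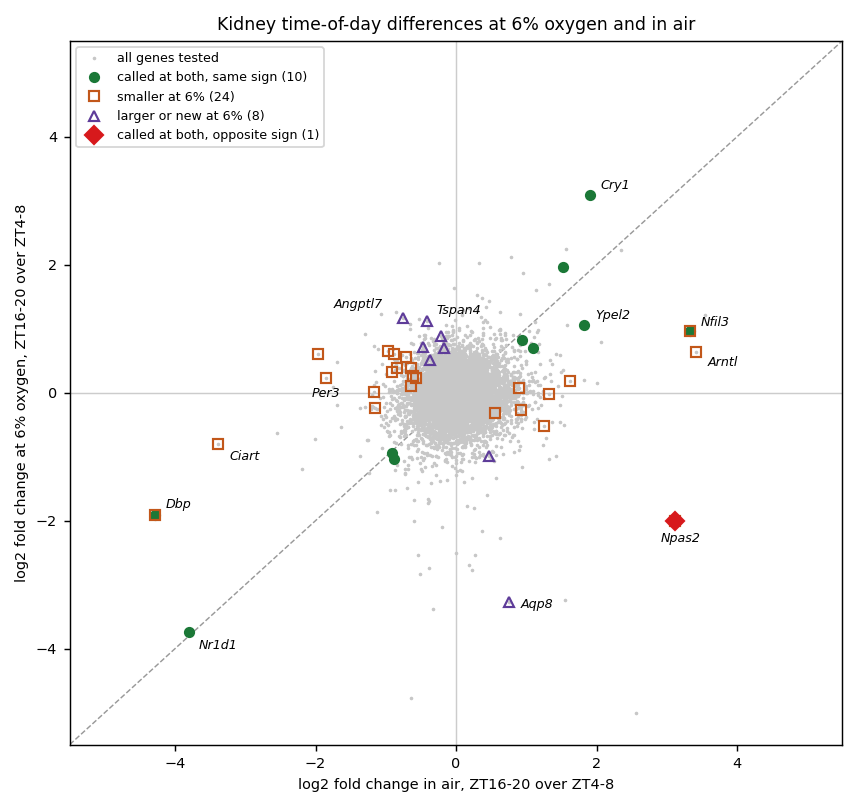
Log2 fold change of ZT16-20 over ZT4-8 in kidney at 6% oxygen (vertical axis) against that in air (horizontal axis) for each of the 10878 genes tested, with the classes marked and the line of equal effects dashed. Nr1d1 lies near the line at -3.75 and -3.80, Dbp, Ciart, Arntl and Nfil3 lie toward the horizontal axis, and Npas2 lies at -2.0 and 3.12; Dbp, Nfil3 and Npas2 carry 2 marks.

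Nr1d1 and Cry1 kept their day-night difference at 6% oxygen. Nr1d1, which encodes the repressor REV-ERBα (mm10, chromosome 11, 98767932 to 98775333), had 13.2, 17.4, 10.9 and 17.1 CPM in dark-phase 6% kidneys, against 200.2, 195, 187 and 208 CPM in light-phase 6% kidneys. All 4 dark-phase libraries lay far below all 4 light-phase ones. Its log2 fold change was -3.75 ± 0.22 (SE) at 6% oxygen, with an adjusted p of 9.6e-10, and -3.80 ± 0.25 in air, where dark-phase kidneys held 1.34, 3.8, 4.85 and 4.5 CPM and light-phase kidneys 56.8, 48.4, 34.6 and 69.8 CPM. At both times every value at 6% oxygen was above every value in air, while the difference between the time effects was 0.05, with a 95% confidence interval of -0.55 to 0.66.

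Cry1, a core repressor of the clock (mm10, chromosome 10, 85131700 to 85185064), moved the other way, with 29.9, 20.2, 21 and 21.9 CPM in dark-phase and 1.58, 1.84, 3.38 and 3.92 CPM in light-phase 6% kidneys. The groups stood apart without overlap (log2 fold change 3.09 ± 0.26, adjusted p = 3.45e-07). In air dark-phase kidneys had 34.8, 37.4, 30.9 and 27.8 CPM and light-phase kidneys 9.53, 6.96, 9.93 and 8.66 CPM (1.90 ± 0.20). The effect at 6% oxygen was larger by 1.19, with an interval of 0.49 to 1.90, and this did not pass the adjustment (adjusted p = 0.188).

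Outside the clock, 5 genes persisted. Tmem86a, a lysoplasmalogenase, had 72.3, 87.4, 82.7 and 54.7 CPM in dark-phase and 133, 153, 166 and 160.1 CPM in light-phase 6% kidneys (-1.04 ± 0.14, adjusted p = 0.000767; -0.88 ± 0.15 in air). Slc35f3, a solute carrier, fell likewise, with a log2 fold change of -0.94 ± 0.18 at 6% oxygen (adjusted p = 0.0131) and -0.91 ± 0.17 in air. Both groups of each gene stood apart at 6% oxygen. Ypel2, a yippee-like protein, had 40.7, 34.1, 40.3 and 44.1 CPM in dark-phase and 16.4, 20.3, 19.2 and 20.3 CPM in light-phase 6% kidneys (1.06 ± 0.18, adjusted p = 0.00585; 1.82 ± 0.17 in air). Slc14a2, the urea transporter of the inner medulla that serves urine concentration, had 54, 55.5, 68.9 and 75.1 CPM in dark-phase and 42.6, 24.9, 38.7 and 36.4 CPM in light-phase 6% kidneys. Its fold change was 0.82 ± 0.18 at 6% oxygen (adjusted p = 0.0473) and 0.93 ± 0.19 in air. Markers of the collecting duct moved with it: the sum of the 8 was 1337 to 1739 CPM in dark-phase and 1028 to 1262 CPM in light-phase 6% kidneys, against 965 to 1193 and 1100 to 1131 CPM in dark- and light-phase kidneys in air, none of the 8 was called, and their part in the result was not tested. In whole-organ RNA, fewer cells of a type and less RNA per cell cannot be told apart. Cdkn1a, the cell cycle inhibitor p21, had 337, 273, 284 and 252 CPM in dark-phase and 148, 147, 203 and 208 CPM in light-phase 6% kidneys, against 25.1, 29.5, 38.8 and 28 CPM in dark-phase and 10.2, 14.7, 17.9 and 14.1 CPM in light-phase air kidneys. Its time effect was 0.70 ± 0.15 at 6% oxygen (adjusted p = 0.0447) and 1.09 ± 0.19 in air, and every value at 6% oxygen lay above every value in air. Tmem86a and Ypel2 were called in all 16 fits that left out a library, Slc35f3 in 14 (all but those without dark-phase 6% replicates A or D), Cdkn1a in 6 and Slc14a2 in 5 of the 16, with adjusted p up to 0.0576, 0.169 and 0.156.

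Dbp and Nfil3, the activator and the repressor that meet at D-boxes, persisted with a reduced difference. Dbp (mm10, chromosome 7, 45705088 to 45710203) had 25.8, 27.1, 33.4 and 35.4 CPM in dark-phase and 153, 109, 99.2 and 94.8 CPM in light-phase 6% kidneys. In air it had 14.1, 15.5, 12.8 and 14.8 CPM in dark-phase and 270.2, 306, 215 and 327 CPM in light-phase kidneys. Neither pair of groups overlapped, and at 6% oxygen the dark-phase values were higher and the light-phase values lower than in air. The fold change was -1.91 ± 0.17 at 6% oxygen (adjusted p = 7.53e-07), -4.29 ± 0.18 in air, and the effects differed by 2.38 ± 0.24 (adjusted p = 2.74e-05). Nfil3 (mm10, chromosome 13, 52967209 to 52981073) had 69.9, 65, 62.8 and 68.2 CPM in dark-phase and 32.2, 40.1, 31.9 and 32.8 CPM in light-phase 6% kidneys, against 29.4, 33.1, 28.9 and 38.9 CPM in dark-phase and 3.4, 2.06, 5.11 and 2.31 CPM in light-phase air kidneys. Here the light-phase 6% kidneys reached the level of dark-phase kidneys in air. The fold change was 0.96 ± 0.16 at 6% oxygen (adjusted p = 0.00585) and 3.33 ± 0.21 in air, a difference of -2.38 ± 0.27 (adjusted p = 7.87e-05). Both genes were called, for the time effect and for its difference, in all 16 fits that left out a library.

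In Arntl, Ciart, Tef, Per3 and Usp2 no time effect was called at 6% oxygen, although each had one in air and the difference between the time effects was called. Arntl, the positive arm of the clock (mm10, chromosome 7, 113207465 to 113314126), had 31.2, 16.1, 13.4 and 11.3 CPM in dark-phase and 5.05, 14.3, 11.6 and 16 CPM in light-phase 6% kidneys. Replicate A holds the highest dark-phase and the lowest light-phase value, and the other libraries of the 2 groups overlap. In air dark-phase kidneys had 35.8, 34.8, 34.2 and 45.5 CPM and light-phase kidneys 3.4, 3.09, 5.67 and 1.73 CPM. The fold change was 0.64 ± 0.34 at 6% oxygen (interval -0.06 to 1.34, adjusted p = 0.484) and 3.42 ± 0.36 in air, with a difference of -2.78 ± 0.50 (adjusted p = 0.0154). Without the dark-phase replicate A the fold change at 6% oxygen was 0.24. Ciart, a repressor of BMAL1 and CLOCK (mm10, chromosome 3, 95878503 to 95882251), had 8.48, 21.5, 17.4 and 15.3 CPM in dark-phase and 31, 25.3, 24.1 and 28.5 CPM in light-phase 6% kidneys. All 4 dark-phase values lay below the light-phase ones, but the fold change of -0.80 ± 0.23 was not called (adjusted p = 0.144). In air it had 1.0, 0.585, 0.766 and 0.529 CPM in dark-phase and 10.5, 8.5, 5.11 and 7.21 CPM in light-phase kidneys (-3.38 ± 0.40), and the difference of 2.59 ± 0.48 passed (adjusted p = 0.0154; 0.0575 without dark-phase air replicate D).

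Tef, which encodes a D-box activator (mm10, chromosome 15, 81802421 to 81826863), had 270.5, 247, 241 and 229 CPM in dark-phase and 206, 248, 239 and 287 CPM in light-phase 6% kidneys. The groups lay within each other's range, with a fold change of 0.01 ± 0.14 and an interval of -0.27 to 0.29, so a change as large as that in air (-1.16 ± 0.14) lies outside it. The effects differed by 1.17 ± 0.19 (adjusted p = 0.00617). Per3, a PER family member, had 10.2, 7.57, 8.34 and 9.48 CPM in dark-phase and 11.1, 7.37, 7.52 and 3.92 CPM in light-phase 6% kidneys, against 7.36, 3.8, 6.64 and 3.44 CPM in dark-phase and 20.8, 15.2, 27.8 and 12.7 CPM in light-phase air kidneys. Its difference of 2.08 ± 0.44 (adjusted p = 0.034) was called in 6 of the 16 fits that left out a library, with adjusted p up to 0.0991. Usp2, a deubiquitinase and clock output, had a fold change of 0.11 ± 0.10 at 6% oxygen and -0.64 ± 0.10 in air (difference 0.75 ± 0.15, adjusted p = 0.0218, called in 10 of the 16, with adjusted p up to 0.0664).

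**Figure D2:**
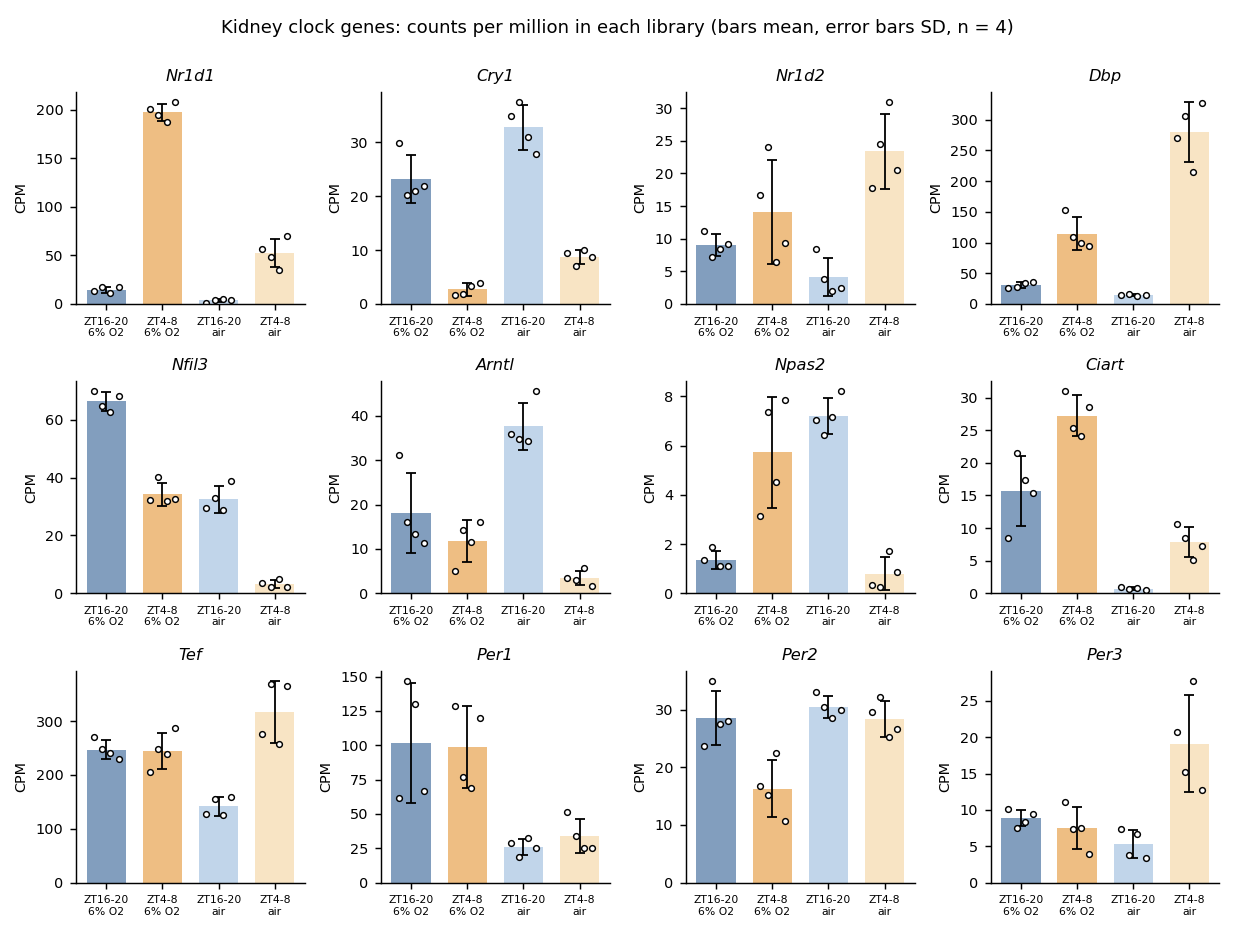
Kidney levels of 12 clock genes in CPM (vertical axes from 0) for dark-phase 6%, light-phase 6%, dark-phase air and light-phase air kidneys, with points for libraries, bars for means and error bars for SD (n = 4). Nr1d1 and Cry1 separate dark from light at both oxygen levels, Tef, with means of 247 and 245 CPM at 6% oxygen, does not at 6% oxygen, and Npas2 shows opposite order at the 2 oxygen levels.

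Npas2, the partner of BMAL1 that can stand in for CLOCK (mm10, chromosome 1, 39193731 to 39363236), was the gene called with opposite signs. It had 1.36, 1.89, 1.09 and 1.09 CPM in dark-phase and 3.16, 7.37, 4.51 and 7.84 CPM in light-phase 6% kidneys, so dark-phase levels were the lower ones. In air dark-phase kidneys had 7.03, 6.44, 7.15 and 8.2 CPM and light-phase kidneys 0.34, 0.258, 1.7 and 0.866 CPM, the reverse order. The phases did not overlap at either oxygen level. The fold change was -2.0 ± 0.41 at 6% oxygen (adjusted p = 0.029) and 3.12 ± 0.41 in air (adjusted p = 0.000187), and the difference was -5.12 ± 0.59 (adjusted p = 7.87e-05). These are low counts. The difference was called in all 16 fits that left out a library, and the effect at 6% oxygen in 10: it was lost without light-phase 6% replicates B or D or without any one of the 4 dark-phase 6% replicates, with adjusted p up to 0.123.

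The remaining core genes showed no called time effect at 6% oxygen. Per2, a core repressor, had 23.8, 35, 27.6 and 28.1 CPM in dark-phase and 16.7, 15.2, 22.5 and 10.7 CPM in light-phase 6% kidneys. The groups did not overlap, and its fold change of 0.81 ± 0.19 was just outside the threshold (adjusted p = 0.0521; 0.10 ± 0.17 in air), while DESeq2 called it (adjusted p = 0.00737). Per1 overlapped fully, with 61.8 to 147 CPM in dark-phase and 69.1 to 128 CPM in light-phase 6% kidneys (0.04 ± 0.30), on levels above the 18.4 to 32.4 CPM and 24.8 to 51 CPM of dark- and light-phase kidneys in air. Nr1d2, which encodes REV-ERBβ, had a fold change of -0.63 ± 0.38 at 6% oxygen and -2.55 ± 0.38 in air, but the difference of 1.92 ± 0.55 was not called (adjusted p = 0.191). Cry2 (0.32 ± 0.14), the repressor Bhlhe40 (-0.21 ± 0.16), the activator Rora (0.42 ± 0.28) and the mitotic kinase gene Wee1 (0.41 ± 0.25) were not called at 6% oxygen, in air or for the difference. Clock and Rorb were listed but too low to test, with 0.339 to 0.947 and 0 to 1.45 CPM in dark-phase and 0.632 to 1.78 and 0 to 0.632 CPM in light-phase 6% kidneys.

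Counted by role, the 4 tested clock activators had a median fold change of 0.53 at 6% oxygen and 2.32 in air. Of 10 tested clock repressors, 3 were called at 6% oxygen (Cry1 and Nfil3 higher, Nr1d1 lower) and 6 in air (2 higher and 4 lower), with medians of 0.14 and -0.40. Of 20 clock outputs, 4 were called at 6% oxygen and 5 in air, and only Dbp was among both. The outputs called at 6% oxygen were Dbp, lower in the dark phase, and Tspan4, Tsc22d3 and Hlf, all higher. The median fold change of the 20 outputs was 0.21 at 6% oxygen and -0.02 in air, beside 0.00 for all genes tested at 6% oxygen.

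Outside the core clock, the 4 named genes with a smaller effect at 6% oxygen, none called there, were Susd3, Clpx, Kcnk5 and Arrdc3. Susd3, a sushi domain protein, had 170.4, 189, 188 and 172 CPM in dark-phase and 112, 119, 123 and 118 CPM in light-phase 6% kidneys, against 94, 104, 84 and 80.2 CPM in dark-phase and 162, 214, 116 and 177 CPM in light-phase air kidneys. The order of the phases was thus opposite at the 2 oxygen levels, though the effect at 6% oxygen was just outside the threshold (0.61 ± 0.14, adjusted p = 0.0533; difference 1.49 ± 0.20, adjusted p = 0.000573). Clpx, the unfoldase of the mitochondrial ClpXP protease, had 158 ± 18.4 CPM in dark-phase and 192 ± 10.8 CPM in light-phase 6% kidneys (SD, n = 4), against 178 ± 9.06 CPM in dark-phase and 93.4 ± 18.1 CPM in light-phase air kidneys (difference -1.21 ± 0.18, adjusted p = 0.0024). Kcnk5, the potassium channel TASK-2 of the proximal tubule, had a time effect of 0.32 ± 0.14 at 6% oxygen and -0.91 ± 0.14 in air (difference 1.23 ± 0.20, adjusted p = 0.00599). Arrdc3, an arrestin-like adaptor, had 0.18 ± 0.18 at 6% oxygen and 1.62 ± 0.19 in air (difference -1.44 ± 0.26, adjusted p = 0.0136). All 4 differences were called in all 16 fits that left out a library.

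The 8 genes with a larger or new difference at 6% oxygen included 6 that rose in dark-phase kidneys, namely Tspan4, Hspa8, Herpud1, Aacs, Prnp and Angptl7, and 2 that fell, Ddc and Aqp8. In air the fold changes of all 8 had the opposite sign and none was called, among them Herpud1 (-0.38), Prnp (-0.18), Angptl7 (-0.76) and Aqp8 (0.76). The class covers a membrane organizer (the tetraspanin Tspan4), protein quality control (Hspa8, Herpud1), ketone use (Aacs) and water passage (Aqp8). Tspan4 (mm10, chromosome 7, 141475240 to 141493427) had 109, 124, 135 and 184 CPM in dark-phase and 65.7, 49.3, 83.8 and 54.9 CPM in light-phase 6% kidneys, with no overlap (1.12 ± 0.18, adjusted p = 0.00585). In air it had 84, 82.2, 105 and 74.6 CPM in dark-phase and 124, 119.8, 84.8 and 132 CPM in light-phase kidneys (-0.41 ± 0.18), and the effects differed by 1.53 ± 0.26 (adjusted p = 0.00651). Aacs, acetoacetyl-CoA synthetase (mm10, chromosome 5, 125475814 to 125517410), had 173, 164, 183 and 163 CPM in dark-phase and 104, 81.6, 97.7 and 86.6 CPM in light-phase 6% kidneys, again without overlap (0.88 ± 0.14, adjusted p = 0.0042; -0.22 ± 0.14 in air; difference 1.10 ± 0.19, adjusted p = 0.0103). Both genes passed both tests in all 16 fits that left out a library.

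Hspa8, the constitutive cytosolic chaperone HSC70 (mm10, chromosome 9, 40800984 to 40810087), had 2737, 1939, 1906 and 2307 CPM in dark-phase and 1483, 1588, 1019.5 and 1331 CPM in light-phase 6% kidneys. In air the order was the opposite, with 1526, 1752, 1981 and 1772 CPM in dark-phase and 2218, 2613, 2231 and 2677 CPM in light-phase kidneys. The fold change was 0.71 ± 0.14 at 6% oxygen (adjusted p = 0.0221), -0.47 ± 0.14 and not called in air (adjusted p = 0.131), and the difference was 1.18 ± 0.20 (adjusted p = 0.00651). Herpud1, which helps degrade misfolded proteins of the endoplasmic reticulum, had 1054, 1071, 1085 and 1100.0 CPM in dark-phase and 725, 735, 733 and 838 CPM in light-phase 6% kidneys (0.51 ± 0.10, adjusted p = 0.0249; difference 0.88 ± 0.15, adjusted p = 0.00617). Hspa8 was the only one called of 20 heat shock genes (list median 0.29) and Herpud1 the only one of 23 genes of the unfolded protein response (list median 0.27), beside a median of 0.00 over all genes. The time effect of Hspa8 at 6% oxygen was called in 12 of the 16 fits that left out a library (not without light-phase 6% replicates C or D or dark-phase 6% replicates A or D) and that of Herpud1 in 9, with adjusted p up to 0.0729 and 0.09, and the difference from air in all 16 for both.

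Prnp, the prion protein gene, had 139 ± 13.3 CPM in dark-phase and 86 ± 10.2 CPM in light-phase 6% kidneys (0.70 ± 0.13, adjusted p = 0.0119; difference 0.87 ± 0.18, adjusted p = 0.0244). Angptl7, a secreted angiopoietin-like protein, had 23.8, 29.7, 23.9 and 23 CPM in dark-phase and 14.5, 12, 7.14 and 11.1 CPM in light-phase 6% kidneys (1.16 ± 0.25, adjusted p = 0.0447; difference 1.92 ± 0.36, adjusted p = 0.0154). Ddc, aromatic amino acid decarboxylase, which makes dopamine in the proximal tubule (mm10, chromosome 11, 11814101 to 11898144), had 67.2, 51.4, 48.6 and 49.2 CPM in dark-phase and 100.1, 128, 111 and 91.3 CPM in light-phase 6% kidneys, with no overlap (-0.99 ± 0.17, adjusted p = 0.00911). In air the effect was 0.47 ± 0.17, with 92, 84, 101 and 107 CPM in dark-phase and 86.8, 53.3, 86.8 and 51.9 CPM in light-phase kidneys, and the difference was -1.45 ± 0.24 (adjusted p = 0.00651). Aqp8, an aquaporin (mm10, chromosome 7, 123462291 to 123468004), had 0.679, 1.26, 0 and 0.364 CPM in dark-phase and 3.79, 11.1, 4.51 and 6.06 CPM in light-phase 6% kidneys (-3.28 ± 0.59, adjusted p = 0.0106). A dark-phase library had no count of it, so the size of this fall rests on very few reads. Aqp8 was called at 6% oxygen in all 16 of the fits that left out a library, Ddc in 15 (adjusted p = 0.0512 without dark-phase 6% replicate C), Prnp in 14 and Angptl7 in 6 (adjusted p up to 0.0582 and 0.116). Their differences from air were called in all 16 for Ddc and Angptl7, in 14 for Aqp8 and in 6 for Prnp (adjusted p up to 0.0608 and 0.0775).

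**Figure D3:**
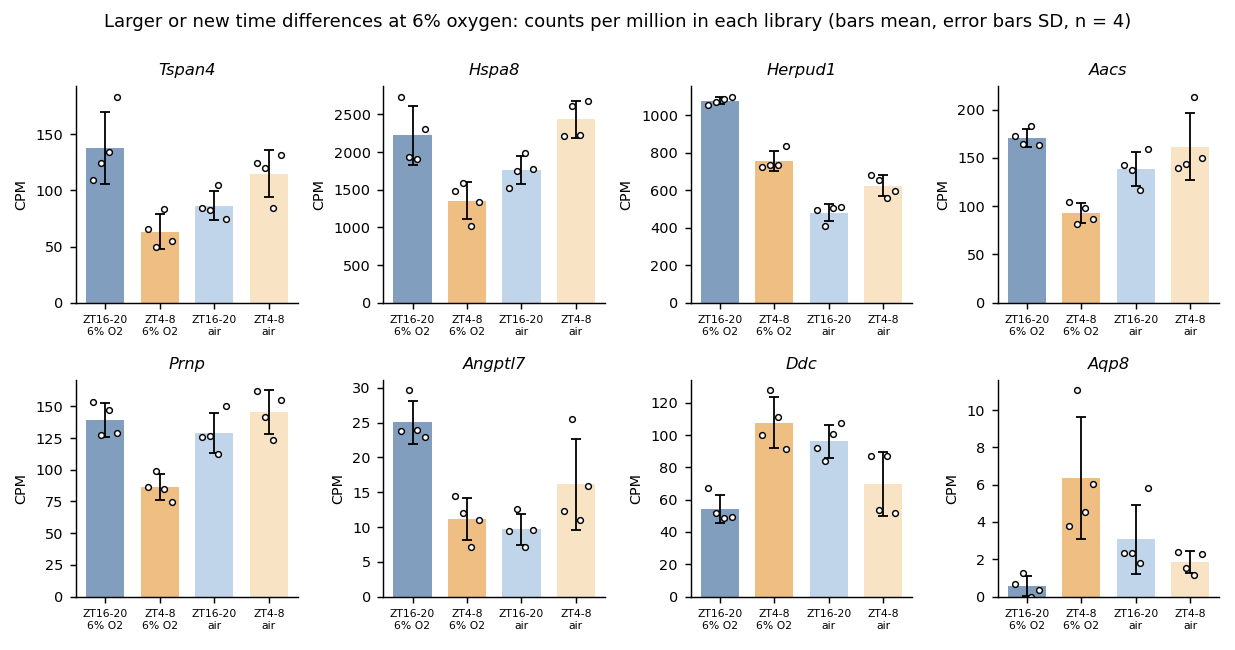
Kidney levels in CPM (vertical axes from 0) of the 8 genes with a larger or new time difference at 6% oxygen, for dark-phase 6%, light-phase 6%, dark-phase air and light-phase air kidneys, with points for libraries, bars for means and error bars for SD (n = 4). Tspan4, Hspa8, Herpud1, Aacs, Prnp and Angptl7 are higher in the dark-phase than in the light-phase 6% kidneys, and Ddc and Aqp8 are lower.

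Among the other genes called at 6% oxygen, for which no difference from air was called, those higher in the dark phase included Scd2, Srebf1 and 2 glucocorticoid-induced genes. Scd2, a stearoyl-CoA desaturase (mm10, chromosome 19, 44293674 to 44306864), had 154, 152, 164 and 155 CPM in dark-phase and 94.1, 93.1, 90.9 and 86.3 CPM in light-phase 6% kidneys. These were narrow groups well apart (0.78 ± 0.10, adjusted p = 0.000375; 0.19 ± 0.10 in air; adjusted p of the difference 0.0991). Srebf1, the transcription factor SREBP-1 (mm10, chromosome 11, 60199089 to 60222581), had 131, 146, 143 and 115 CPM in dark-phase and 73.3, 62.2, 58.2 and 93.8 CPM in light-phase 6% kidneys (0.89 ± 0.15, adjusted p = 0.00818; -0.11 ± 0.16 in air). Its difference of 1.00 ± 0.22 lay at the threshold (adjusted p = 0.0504). None of 22 tested genes of cholesterol synthesis was called at either oxygen level, and no list of fatty acid synthesis genes was examined. Both Scd2 and Srebf1 were called in all 16 fits that left out a library.

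Tsc22d3, which encodes the glucocorticoid-induced leucine zipper, had 106, 103, 134 and 107 CPM in dark-phase and 69.2, 50.7, 65 and 51 CPM in light-phase 6% kidneys (0.93 ± 0.18, adjusted p = 0.0157; 0.69 ± 0.18 in air). Fkbp5, a co-chaperone of the glucocorticoid receptor, had 344, 358, 353 and 274 CPM in dark-phase and 212, 196, 194 and 212 CPM in light-phase 6% kidneys (0.71 ± 0.14, adjusted p = 0.0198; -0.16 ± 0.14 in air; difference 0.86 ± 0.20, adjusted p = 0.057). With Cdkn1a these were the 3 called of 20 tested glucocorticoid-induced genes, all higher, while the list's median was 0.04. Sgk1, the kinase that conveys aldosterone and glucocorticoid signals to sodium channels, had 988, 755, 1007 and 879.5 CPM in dark-phase and 449, 557, 469 and 363 CPM in light-phase 6% kidneys. The groups did not overlap, but edgeR's fit over 4 groups did not call it (0.98 ± 0.25, adjusted p = 0.1; 1.17 ± 0.25, adjusted p = 0.0307 in air), whereas DESeq2 (adjusted p = 0.0105) and edgeR's fit of the 8 libraries at 6% oxygen alone (adjusted p = 0.00262) did. Pdk4, a switch of pyruvate use, had 1.05 ± 0.32 at 6% oxygen (adjusted p = 0.2) and 1.58 ± 0.33 in air (adjusted p = 0.0307). Hlf, the D-box activator, had 64.8, 67.8, 68.2 and 74.4 CPM in dark-phase and 55.9, 35.5, 48.9 and 43.1 CPM in light-phase 6% kidneys (0.58 ± 0.13, adjusted p = 0.0447). The call held in 13 of the 16 fits that left out a library for Tsc22d3, in 9 for Fkbp5 and in 3 for Hlf, with adjusted p up to 0.0854, 0.0854 and 0.136. In the fit of the 8 libraries alone Hlf was not called (adjusted p = 0.0958).

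Scnn1a, the α-subunit of the epithelial sodium channel, had 305, 285, 295 and 225 CPM in dark-phase and 176, 97.7, 188 and 202 CPM in light-phase 6% kidneys (0.74 ± 0.16, adjusted p = 0.0447; 0.19 ± 0.16 in air). The collecting duct sums given beside Slc14a2 moved with this gene too. Marker sums of the loop of Henle (median 8667 CPM in dark-phase and 7347 CPM in light-phase 6% kidneys) and the distal tubule (796 and 625 CPM) were also higher, with overlap between the groups. In air those medians were 9936 and 7624 CPM for the loop of Henle and 798 and 733 CPM for the distal tubule. The part of these sums in the result was not tested. Scnn1a was the only one called of 39 tested transport genes of the loop, distal tubule and collecting duct, whose median was 0.17, and it was called in 5 of the 16 fits that left out a library (adjusted p up to 0.152) and not in the fit of the 8 libraries alone (adjusted p = 0.0958). Nkain1, an interactor of the sodium pump, had 21, 21.8, 29.8 and 28.1 CPM in dark-phase and 10.4, 7.37, 15 and 6.77 CPM in light-phase 6% kidneys (1.33 ± 0.26, adjusted p = 0.0215). Lrtm2, a leucine-rich repeat membrane protein, had 17, 12.3, 16 and 9.11 CPM in dark-phase and 6.95, 4.61, 3.76 and 5.7 CPM in light-phase 6% kidneys (1.34 ± 0.30, adjusted p = 0.0447). They were called in 11 and 6 of the 16.

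Genes lower in the dark phase at 6% oxygen included F3, Ppargc1b and Tbxas1. F3, tissue factor, the starter of blood clotting, had 23.4, 24.6, 26.1 and 16.4 CPM in dark-phase and 34.1, 58.5, 41.3 and 68.8 CPM in light-phase 6% kidneys (-1.15 ± 0.19, adjusted p = 0.00585; -0.44 ± 0.20 in air). Ppargc1b, the coactivator PGC-1β of mitochondrial genes, had 26.5, 33.1, 35.9 and 18.6 CPM in dark-phase and 55, 65.4, 54.1 and 58.8 CPM in light-phase 6% kidneys (-1.03 ± 0.20, adjusted p = 0.0157; -0.56 ± 0.19 in air). None of 50 nuclear genes for subunits of oxidative phosphorylation was called (median 0.01). The 6 podocyte markers summed to 285 to 351 CPM in dark-phase and 276 to 333 CPM in light-phase 6% kidneys. Tbxas1, thromboxane synthase, had 14.9, 18, 15.2 and 20 CPM in dark-phase and 37.6, 36, 36.1 and 23.2 CPM in light-phase 6% kidneys (-0.96 ± 0.18, adjusted p = 0.0141). F3 was called in all 16 fits that left out a library, Tbxas1 in 13 and Ppargc1b in 12, with adjusted p up to 0.0801 and 0.0591.

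Slco1a1, an organic anion transporter of the proximal tubule, had 170.0, 219.9, 142 and 110.4 CPM in dark-phase and 310.1, 385, 197 and 426 CPM in light-phase 6% kidneys (-1.04 ± 0.22, adjusted p = 0.0447). Its groups overlapped, alone among the 54. It was the only one called of 38 proximal tubule transport genes (median -0.07), and it was not called without the filter on low counts (adjusted p = 0.0537) or in the fit of the 8 libraries alone (adjusted p = 0.0898). Akr1c21, an aldo-keto reductase, was the only one of 33 conjugating and oxidizing enzymes, with 26.8, 43.5, 40.6 and 45.6 CPM in dark-phase and 62.2, 92.6, 69.9 and 87 CPM in light-phase 6% kidneys (-0.99 ± 0.20, adjusted p = 0.0221). Both, like Hspa8 and Clec2h, belong to families of close copies, so their counts are uncertain. Clec2h, a C-type lectin (-1.15 ± 0.22, adjusted p = 0.0221), Ethe1, a mitochondrial enzyme of sulfide breakdown (-0.94 ± 0.20, adjusted p = 0.0447), and Phlda2, an imprinted gene (-0.97 ± 0.21, adjusted p = 0.0447), also fell. Car3, a carbonic anhydrase abundant in fat and muscle, had 133, 163, 130.2 and 44.8 CPM in dark-phase and 369, 455, 357 and 369 CPM in light-phase 6% kidneys (-1.72 ± 0.32, adjusted p = 0.025). The 6 listed of 7 fat markers summed to 114 to 184 CPM in dark-phase and 194 to 555 CPM in light-phase 6% kidneys, with all 6 fold changes below 0 and none called, and their part in the fall of Car3 was not tested. Of these genes Akr1c21 was called in 12 of the 16 fits that left out a library, Clec2h and Car3 in 11 and 11, Phlda2 in 6, Slco1a1 in 5 and Ethe1 in 4, with adjusted p up to 0.154 for Slco1a1.

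Outside the naming rule and chosen after their values were seen, 4 further called genes have well-known roles. Met, the receptor for hepatocyte growth factor, fell to 20.4 to 26.8 CPM in dark-phase kidneys, against 32.7 to 42.3 CPM in light-phase kidneys (-0.73 ± 0.16, adjusted p = 0.0469). Gpt2, an alanine aminotransferase, rose to 61.4 to 74 CPM in dark-phase kidneys, against 29.7 to 48.3 CPM in light-phase kidneys (0.69 ± 0.15, adjusted p = 0.0447). Kcnk1, a potassium channel of the nephron, rose as well (0.63 ± 0.14, adjusted p = 0.0457). Thra, thyroid hormone receptor α, had 17.6, 20.5, 27.2 and 20.8 CPM in dark-phase and 33.5, 34.1, 41 and 36.7 CPM in light-phase 6% kidneys (-0.76 ± 0.16, adjusted p = 0.0291), but it overlaps Nr1d1 on the opposite strand. Since the strand setting of the counting is not given, reads of the overlap cannot be assigned with certainty. The same holds for overlaps of Dbp with Sphk2, Tspan4 with Chid1, Angptl7 with Mtor, Srebf1 with Rai1, Tbxas1 with Hipk2 and Bhlhe40 with 0610040F04Rik, and Per3 overlaps Camta1 on the same strand. Of the 16 fits that left out a library, Thra was called in 9, Gpt2 in 5, Met in 4 and Kcnk1 in 4.

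**Figure D4:**
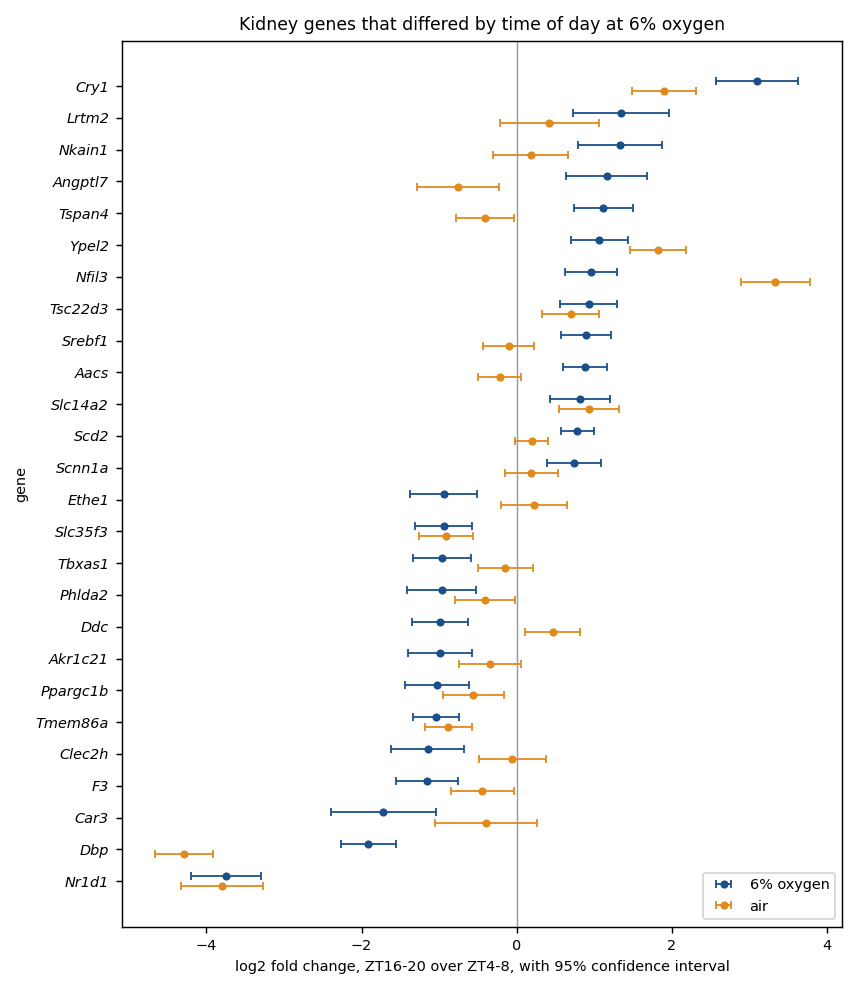
Log2 fold change of ZT16-20 over ZT4-8 in kidney (horizontal axis), with 95% confidence intervals, for named genes that were higher or lower in the dark phase at 6% oxygen, in blue for 6% oxygen and in orange for air. Intervals at 6% oxygen and in air nearly coincide for Nr1d1 and lie far apart for Dbp and Nfil3; the genes were chosen by the value at 6% oxygen.

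In the other lists fixed for the comparison few members were called at 6% oxygen, and in most none. Of 27 tested targets of the hypoxia-inducible factors none was called, with a median of 0.07; Vegfa had 0.04 ± 0.10 and Hif1a itself 0.29 ± 0.20. The target Ndrg1 was called in air (0.89 ± 0.12) with a reduced effect at 6% oxygen (0.07 ± 0.12; difference -0.82 ± 0.17, adjusted p = 0.0301), having 3349, 3559.7, 3990.2 and 3715 CPM in dark-phase and 2687, 4051, 3826 and 3353 CPM in light-phase 6% kidneys, against 4309, 3891, 4457 and 3981 CPM in dark-phase and 2524, 2024, 2325 and 2079 CPM in light-phase air kidneys. Light-phase kidneys in air were the lowest of the 4 groups. Ndrg1 was chosen after its values were seen, and the difference was called in 4 of the 16 fits that left out a library (adjusted p up to 0.0843). None was called at 6% oxygen among 14 genes of glycolysis, 19 immediate early genes, 13 NF-kB targets and cytokines, 34 genes of fatty acid oxidation, 26 of gluconeogenesis and amino acid breakdown (Pck1 had 0.03 ± 0.21), 56 cytosolic ribosomal proteins and 24 cold-inducible and splicing regulators (Cirbp had 0.28 ± 0.18). Of 15 tested p53 targets, Cdkn1a was the only one called. The median size of the standard error, 0.21 on the log2 scale, limits which single-gene shifts could be called.

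Liver and lung came from the same mice, and libraries with the same letter were taken as one animal. The fit over the 24 libraries at 6% oxygen set the time effect in kidney beside that in the other tissues. Of 10386 genes tested jointly, 48 (0.462%) differed in time effect between kidney and liver and 7 (0.0674%) between kidney and lung. Of the 54 genes called in kidney, 42 were tested jointly; 1 of these, Dbp, differed from liver and 1, Ppargc1b, from lung. Dbp had -1.91 ± 0.17 in kidney, -0.36 ± 0.36 in liver and -1.80 ± 0.19 in lung (kidney minus liver -1.64 ± 0.26, adjusted p = 0.00253). Ppargc1b had -1.03 ± 0.20 in kidney, -0.05 ± 0.21 in liver and 0.93 ± 0.38 in lung (kidney minus lung -2.0 ± 0.39, adjusted p = 0.0408). Usp2 differed from liver without being called in kidney, with 0.11 ± 0.10 in kidney and 1.20 ± 0.18 in liver (kidney minus liver -1.14 ± 0.19, adjusted p = 0.00253). Por, the electron donor of cytochrome P450 enzymes, had 0.29 ± 0.13 in kidney and 1.40 ± 0.15 in liver (kidney minus liver -1.12 ± 0.18, adjusted p = 0.00223). Slc16a12, a monocarboxylate transporter family member, had -0.35 ± 0.16 in kidney and 1.62 ± 0.26 in liver (kidney minus liver -2.0 ± 0.23, adjusted p = 3.42e-05). The 7 differences from lung dropped to between 1 and 4 without each of the 8 mice in turn, and the 48 from liver to between 17 and 25 without light-phase 6% mice B or D or dark-phase 6% mice C or D.

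In their own tables liver called 14 of the 39 kidney-called genes it tested and lung 9 of 45, beside 2.78% of all genes in liver and 0.617% in lung, and all of these had the sign seen in kidney. Nr1d1, Cry1, Hlf, Hspa8 and Tspan4 were among those called in all 3 tissues. Nr1d1 had -3.75 ± 0.22 in kidney, -4.48 ± 0.31 in liver and -4.35 ± 0.17 in lung. Tspan4 had 1.12 ± 0.18 in kidney, 1.31 ± 0.15 in liver and 0.62 ± 0.14 in lung, and Hspa8 0.71 ± 0.14 in kidney, 0.89 ± 0.17 in liver and 0.78 ± 0.12 in lung. Nfil3 was called in kidney (0.96 ± 0.16) and not in liver (0.27 ± 0.18) or lung (0.21 ± 0.16), but kidney minus liver was 0.68 ± 0.21 (adjusted p = 0.155) and kidney minus lung 0.75 ± 0.21 (adjusted p = 0.286), so it is not shown to differ. Arntl was called in none of the 3 tissues, with 0.64 ± 0.34 in kidney, 0.43 ± 0.20 in liver and -0.03 ± 0.25 in lung. Cry1 had 3.09 ± 0.26 in kidney, 2.35 ± 0.23 in liver and 1.70 ± 0.22 in lung, and neither difference was called (adjusted p = 0.517 and 0.147). Libraries of the same mouse share its state, so the tissues are not independent repeats.

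**Figure D5:**
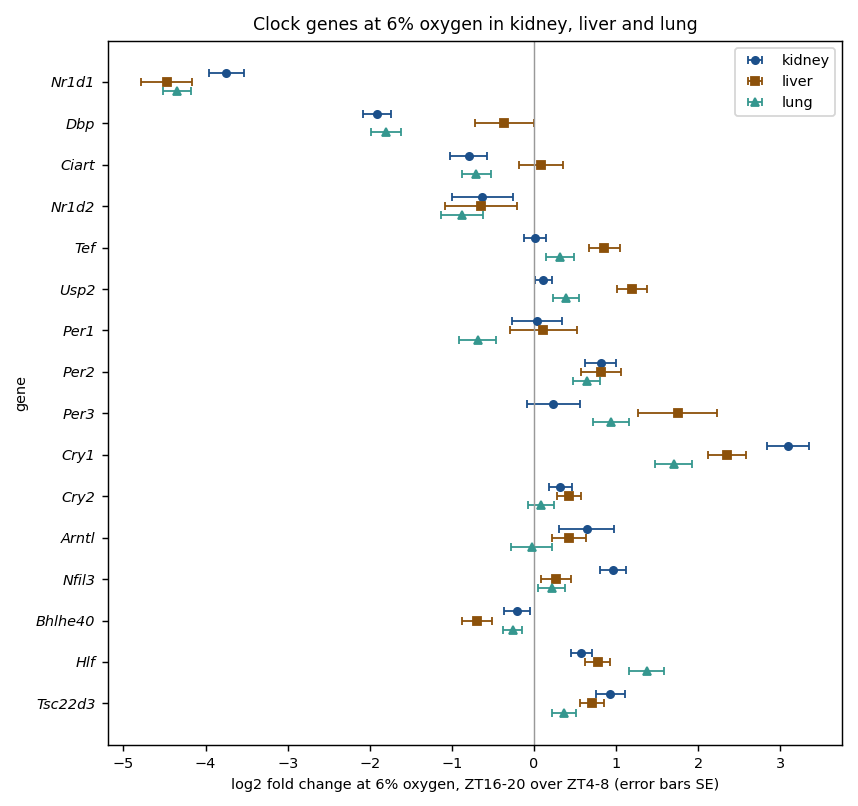
Log2 fold change of ZT16-20 over ZT4-8 at 6% oxygen (horizontal axis, error bars SE) for 16 clock genes in kidney, liver and lung, each from the fit of its own table. Nr1d1 and Cry1 lie far from 0 in all 3 tissues, Arntl between -0.03 and 0.64, and Dbp at -0.36 in liver against -1.91 in kidney.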

How the data were processed

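Total RNA of whole kidneys was sequenced, and the authors deposited raw read counts per gene symbol, 1 table for each of the 3 tissues. Per the submitters' processing notes the tools were bcl2fastq, cutadapt, STAR and HTSeq with mm10; which annotation was used and how strand was treated is not given in the sources used here. The 8 libraries compared and the 8 air controls came from the kidney table of 12921 genes, and groups were taken from the labels. Counts were scaled by TMM in edgeR 4.0.16 (R 4.3.3, limma 3.58.1), 10878 genes passed filterByExpr (minimum count 10, minimum total 15), and its robust quasi-likelihood test was fitted to 16 libraries with 1 mean per group, adjusting by Benjamini-Hochberg over all genes; an adjusted p under 0.05 was called. Levels (CPM) are counts divided by the TMM-scaled library size, which are not corrected for gene length. A gene persisted if called at both oxygen levels with 1 sign, and was smaller, larger or reversed only where the difference of the effects was also called, or signs were opposite. Kidney was set against liver and lung in 1 fit of 24 libraries with mouse as a block. DESeq2 1.42.0, RLE scaling, no filter, 2 other thresholds, a replicate block, fits of only the libraries compared and leaving out each library were alternatives. The fits were tested on simulated data. The 24 replicate pairs within groups differed beyond sampling noise (chi-square per degree of freedom 2.43 to 25.3), so none was counted as a copy.

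Genes named are, up to set numbers, the called genes with the largest fold changes among those with a mean of at least 10 CPM in the higher group and no overlap between groups, those with the smallest p for the difference, for each class, for each tissue difference and in each of 20 lists, beside the clock genes; some genes that the rule names are not reported here. The members and lists, with 14 marker lists, were chosen with earlier results of these data known. Of the 12921 symbols, 12442 matched 1 position in GENCODE vM21, whose coordinates are given. Promoter windows are RefSeq's (GRCm38.p6). Letters did not pair mice of different groups (correlation of deviations between same-letter libraries at 6% oxygen -0.20 to 0.09).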

Additional observations from a re-analysis of the deposited data

Results flagged for a closer look

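In 28 of 356 groups of 4 values tested, 1 library lay far from the other 3; chance alone flags about 1 in 20 such groups. At 6% oxygen, dark phase, these were replicate A for Ddc (67.2 CPM), replicate B for Angptl7 (29.7 CPM) and Clock (0.947 CPM), replicate C for Tsc22d3 (134 CPM), and the marker sums of the loop of Henle in replicate A (12187 CPM) and of macrophages and lymphocytes in replicate D (678 CPM). At 6% oxygen, light phase, they were replicate A for Avpr1a (11.4 CPM, the lowest), replicate B, the shallowest library, for Nfil3 (40.1 CPM), Car3 (455 CPM), the loop of Henle sum (8839 CPM) and the sum of the 5 listed lung markers (26.7 CPM), replicate C for Slc35f3 (41.0 CPM) and replicate D for Herpud1 (838 CPM) and Tbxas1 (23.2 CPM, the lowest). In air, dark phase, they were replicate A for Tbxas1 (31.8 CPM), replicate B for Ypel2 (70.8 CPM) and Herpud1 (411 CPM, the lowest), replicate C for Kcnk5 (112 CPM), Pdk4 (251 CPM), Col1a1 (96.0 CPM) and Ak4 (193 CPM, the lowest), and replicate D for Arntl (45.5 CPM), Aqp8 (5.82 CPM) and Gpt2 (32.8 CPM, the lowest). In air, light phase, they were replicate B for Ethe1 (241 CPM), Met (53.3 CPM) and Avpr1a (8.24 CPM), and replicate C for Aacs (214 CPM).

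The time effect at 6% oxygen was more positive than that in air, by edgeR's test of the difference, for Dbp (2.38 on the log2 scale), Ciart (2.59), Tef (1.17), Per3 (2.08), Usp2 (0.75), Tspan4 (1.53), Susd3 (1.49), Kcnk5 (1.23), Aacs (1.10), Prnp (0.87), Hspa8 (1.18), Herpud1 (0.88), Angptl7 (1.92), Neat1 (0.93), Fgf18 (2.58), Prss8 (0.87), Ak4 (0.83) and Igfbp4 (1.06). It was more negative for Nfil3 (-2.38), Npas2 (-5.12), Arntl (-2.78), Clpx (-1.21), Arrdc3 (-1.44), Ddc (-1.45), Aqp8 (-4.04), Ndrg1 (-0.82), Avpr1a (-1.35), Col1a1 (-1.25) and Rdh10 (-0.92). Between tissues at 6% oxygen, kidney minus liver was -1.64 for Dbp, -1.14 for Usp2, -2.0 for Slc16a12 and -1.12 for Por, and kidney minus lung was -2.0 for Ppargc1b.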

How the results depend on the processing

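RLE scaling and no filter on low counts gave 56 and 51 calls at 6% oxygen (54 in the fit reported), 117 and 119 in air (119), 40 and 41 for the difference (40) and 2 genes called with opposite signs (1). DESeq2 gave 145, 219 and 88 calls, 21 persisting, 44 smaller, 25 larger or new and 4 opposite differences (10, 24, 8 and 1 reported), and 93 and 27 differences from liver and lung (48 and 7). All 54 genes were called by DESeq2 and under RLE scaling, and 44 in a fit of the 8 libraries at 6% oxygen alone, which made 75 calls; that of the 8 air libraries alone made 50. With a replicate block, 42, 82 and 20 genes were called (39 of the 54), 12 were smaller, and among named genes Npas2 (adjusted p = 0.0511), Hlf, Herpud1, Scnn1a, Car3, Thra, Gpt2 and Kcnk1 lost the call at 6% oxygen and Arntl, Usp2, Prnp, Ndrg1, Avpr1a, Fgf18, Prss8, Ak4, Igfbp4 and Rdh10 that for the difference (adjusted p = 0.0506 to 0.0661); without the mouse block, 50 and 7 genes differed from liver and lung. A threshold of 0.01 gave 8 smaller, 2 larger or new and 0 opposite differences, and one of 0.1 gave 16 persisting, 19 larger or new and 4 opposite. Leaving out a library gave 21 to 94 calls at 6% oxygen, 57 to 372 in air and 23 to 155 for the difference, 7 to 12 persisting, 12 to 88 smaller, 4 to 25 larger or new and 0 to 7 opposite differences, with each upper end reached without light-phase air replicate C. Leaving out a mouse gave 17 to 48 differences from liver and 1 to 4 from lung. The uncalled effects at 6% oxygen of Tef (-0.061 to 0.10) and Per1 (-0.20 to 0.22) changed sign when single libraries were left out. Of the genes named, 12 of 39 called at 6% oxygen and 17 of 29 called for the difference held in all 16 fits. The cause of these shifts was not tested. Depth limits the low genes most: 5 of the 54 had means under 10 CPM in both groups.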

Other observations

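Further genes, chosen after their values were seen, had a called time effect in air that was smaller in size at 6% oxygen. The difference between the time effects was called as well (edgeR's quasi-likelihood test with Benjamini-Hochberg adjustment over all genes). Neat1, a long noncoding RNA that scaffolds paraspeckles, had 132, 116, 149.8 and 129 CPM in dark-phase and 159, 136, 153 and 171 CPM in light-phase 6% kidneys, against 337, 278, 252 and 318 CPM in dark-phase and 650.3, 749, 637 and 611 CPM in light-phase air kidneys. Its level was lower in all 8 libraries at 6% oxygen than in any in air, and its time effect was -0.24 ± 0.12 at 6% oxygen and -1.16 ± 0.12 in air (difference 0.93 ± 0.17, adjusted p = 0.0136). Avpr1a, a vasopressin receptor, had 13.9, 11.7, 12 and 12.4 CPM in dark-phase and 11.4, 13.4, 13.2 and 13.2 CPM in light-phase 6% kidneys, against 17.1, 14.9, 12.8 and 18.8 CPM in dark-phase and 5.79, 8.24, 5.67 and 5.48 CPM in light-phase air kidneys (difference -1.35 ± 0.27, adjusted p = 0.023). Fgf18, a growth factor, had 10.2, 5.68, 7.62 and 10.2 CPM in dark-phase and 4.42, 11.5, 4.13 and 2.85 CPM in light-phase 6% kidneys, against 11.7, 6.73, 5.87 and 14 CPM in dark-phase and 34, 35.3, 48.2 and 32 CPM in light-phase air kidneys (difference 2.58 ± 0.48, adjusted p = 0.0154). Light-phase kidneys in air were the only high group of Fgf18 and the only low group of Avpr1a. Prss8, prostasin, a protease that activates the epithelial sodium channel, had time effects of 0.25 ± 0.12 at 6% oxygen and -0.61 ± 0.12 in air (difference 0.87 ± 0.17, adjusted p = 0.0244); it overlaps Kat8 on the opposite strand. The difference was called in all 16 fits that left out a library for Neat1 and Fgf18, in 9 for Avpr1a and in 7 for Prss8.

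In 8 genes the difference between the oxygen levels was called while neither time effect was. Among these, Col1a1, a chain of collagen I, had 50.9, 47.6, 37.7 and 61.6 CPM in dark-phase and 80.9, 74.2, 65.8 and 83.8 CPM in light-phase 6% kidneys, against 64.2, 61.4, 96 and 59.3 CPM in dark-phase and 40.2, 40.4, 47.7 and 53.7 CPM in light-phase air kidneys (difference -1.25 ± 0.24, adjusted p = 0.0178). Ak4, a mitochondrial adenylate kinase, had 0.49 ± 0.11 at 6% oxygen and -0.34 ± 0.11 in air (difference 0.83 ± 0.16, adjusted p = 0.019). Igfbp4, a binding protein of insulin-like growth factors, had 0.52 ± 0.15 and -0.54 ± 0.15 (difference 1.06 ± 0.22, adjusted p = 0.0244), and Rdh10, a retinol dehydrogenase, had -0.41 ± 0.13 and 0.51 ± 0.13 (difference -0.92 ± 0.18, adjusted p = 0.0244). They were called in 15 (Col1a1), 15 (Ak4), 5 (Igfbp4) and 8 (Rdh10) of the 16 fits that left out a library.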
